A study of Mus musculus with 6 samples.

Results

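The 9 genes described here are regulators and targets of the peroxisome proliferator-activated receptors (PPARs), together with enzymes of fatty acid oxidation and ketone metabolism. They were taken by name: the receptors Ppara and Pparg, the coactivator Ppargc1a, the targets Angptl4 and Pdk4, the oxidation enzymes Cpt1a and Acadm, the thioesterase Acot12 and the ketone enzyme Bdh1. All 9 were found among the 34745 genes of the table, and all 9 had enough reads to be tested. They were measured by RNA sequencing in 6 colon tissue libraries. Of these, 3 came from TRPC-hepta knockout mice and 3 from TRPC-hepta control mice. The series title describes the knockout as without any of the 7 TRPC proteins, which form channels that let calcium and other cations into cells. The mice of both groups were age-matched males, and all had received DSS (dextran sulfate sodium) for 6 days, a polysaccharide that injures the colonic epithelium. The sources used here give neither ages nor strain, nor which part of each Trpc gene was removed. No mice without DSS were analysed here.

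PPARs are nuclear receptors that bind fatty acids and their derivatives. They pair with a retinoid X receptor on DNA and switch on genes for the uptake, storage and burning of fat. PPAR-alpha is best known for driving fatty acid oxidation and ketone synthesis in liver, while PPAR-gamma is best known from fat cells and is also abundant in the surface epithelium of the colon. Colonocytes, the absorptive cells of that epithelium, normally obtain much of their energy by oxidising butyrate, a short-chain fatty acid made by bacteria.

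The libraries held 13816295 to 15505327 counted reads in the knockout and 16819662 to 17584992 in the control. Levels are given as CPM (counts scaled to library size after TMM, a correction for library composition) and, where genes are compared with each other, as the authors' FPKM, which also divides by gene length. One CPM stood for 13.7 to 17.3 reads. Trpc1 had 152, 90 and 120 reads in the knockout and 178, 145 and 124 in the control. A count over a whole gene can include exons that a deletion leaves in place, so it does not check the labels. Knockout replicates 1 and 2 stood apart, with Pearson r = 0.877 across genes, against 0.97 to 0.976 between control libraries. Of 4673 genes at least 2-fold apart in those replicates, 95.5% lay between them in knockout replicate 3, as did 8 of the 9 genes described here. Its CPM values were close to a sum of replicates 1 and 2 with weights of 0.459 and 0.506, so the count of calls among the 9 genes is also given without it. The tests on all 6 libraries treat replicate 3 as a separate sample. If it is not independent of replicates 1 and 2, the standard errors and p-values of those tests would be too small. Whether replicates are separate animals is not stated in the labels, so p-values cover the spread among these libraries, which may be technical. Markers of colonic epithelium and muscle were found in every library.

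DNA sequences at the start of these genes are shown first, because the receptors act through a known motif. PPARs bind a pair of AGGTCA hexamers in direct repeat with 1 base between them. RefSeq windows of 300 bases on GRCm38.p6, from 250 bases before to 50 after the start of transcription, were matched by symbol for 8 of the 9 genes, all but Angptl4. Pparg had 3 windows and Bdh1 had 2, which makes 11 windows. Both strands were searched. A single hexamer can be part of a repeat, so the motifs overlap. The window of Acot12 (chr13:91741271-91741570, plus strand) held the closest match to the repeat, on the opposite strand from -110 to -98 relative to the start site. It is shown in capitals.
Acot12: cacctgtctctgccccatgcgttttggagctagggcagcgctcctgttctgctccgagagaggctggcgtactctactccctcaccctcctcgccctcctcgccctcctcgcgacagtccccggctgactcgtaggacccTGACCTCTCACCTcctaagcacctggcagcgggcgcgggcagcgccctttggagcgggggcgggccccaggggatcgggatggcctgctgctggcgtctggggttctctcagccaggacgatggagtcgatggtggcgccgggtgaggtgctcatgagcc

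That match differed from the repeat at 1 position. Of 32851 RefSeq windows of the same length, 0.554% held a repeat with 1 mismatch or fewer. The next closest were in the Acadm window and the downstream Bdh1 window, at 3 mismatches each, which 24.6% of all windows reached. The remaining 8 windows had 4 mismatches, as 79.8% of all windows do or better. A single hexamer without mismatches was found in 5 of the 11 windows and in 16.3% of all windows. The best stretch of 4 genes is set out below, with the bases that match the repeat in capitals. A match of letters is not a site where a receptor was shown to bind. Sequence outside these windows was not searched, so a poor match here does not show that a gene lacks such a site.
Acot12: TGACCTcTcACCT
Acadm: AGcTCAgAccTCA
Bdh1: AGaTCAgAtGaCA
Ppargc1a: AtGTCAgAGagCt

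The window of Ppargc1a (chr5:51567676-51567975, minus strand) is shown for contrast, since this gene also differed between the genotypes. It held no such hexamer, and its best stretch, in capitals, lay from -199 to -187.
Ppargc1a: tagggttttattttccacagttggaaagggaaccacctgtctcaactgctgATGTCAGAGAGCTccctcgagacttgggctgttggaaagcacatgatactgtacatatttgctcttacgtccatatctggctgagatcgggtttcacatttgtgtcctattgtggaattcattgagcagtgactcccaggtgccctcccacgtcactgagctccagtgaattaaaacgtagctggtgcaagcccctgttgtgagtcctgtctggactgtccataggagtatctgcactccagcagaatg

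The main comparison asked which of these genes differed between knockout and control colon under DSS. Angptl4, a secreted inhibitor of lipoprotein lipase, rose 7.31-fold in the knockout. Acot12, an enzyme that splits acetyl-CoA, fell to 5 reads over the 3 knockout libraries, against 312 over the 3 control libraries. Ppargc1a, the coactivator that drives the building of mitochondria, fell 2.19-fold. The other 6 genes were not past the threshold. The test was edgeR's quasi-likelihood test over 15819 genes with Benjamini-Hochberg adjustment, at an adjusted p of 0.05.

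So 1 of the 9 genes rose, where 1.09% of all genes tested did, and 2 fell, where 0.67% did. Negative fold changes were found for 7 of the 9 genes and for 48.4% of all genes tested. The libraries of the 2 groups did not overlap for 5 genes, with Angptl4 higher and Pparg, Ppargc1a, Acot12 and Bdh1 lower in the knockout. Among all genes tested, 11.2% were higher and 10.4% lower without overlap. The genes were chosen with earlier results of these libraries known, so these counts describe the genes and do not test them as a group. Without knockout replicate 3, none of the 9 genes was past the threshold, against 0.0372% of all genes higher and 0.0558% lower. Without knockout replicate 2, 1 rose and 4 fell, against 8.07% and 3.14% of all genes. DESeq2, a second count test, called the same 3 genes, against 5.56% of all genes higher and 3.63% lower.

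**Figure D1:**
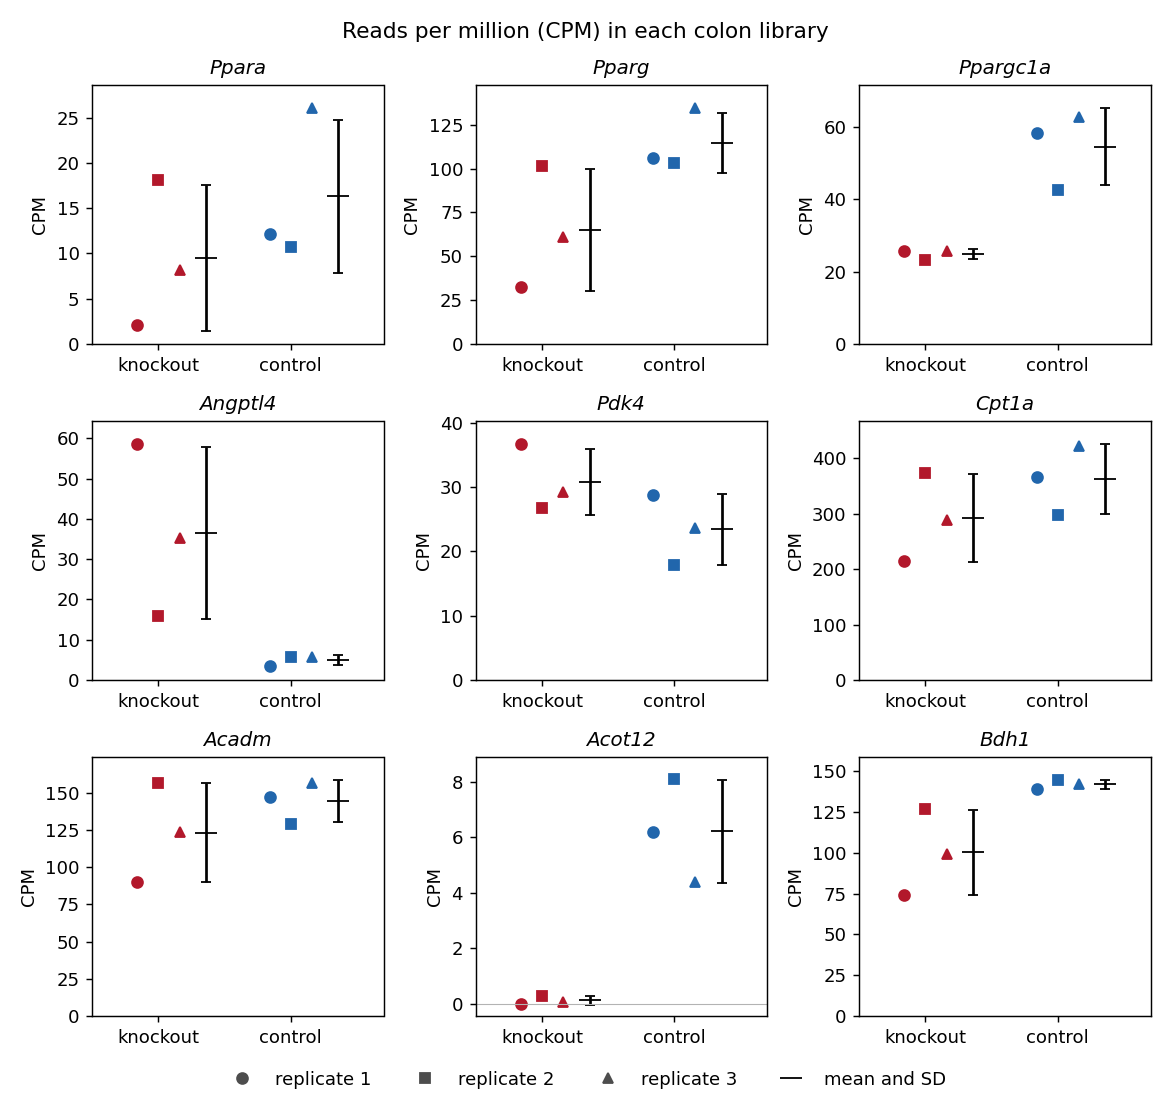
CPM of each of the 9 genes in every colon library, with knockout at left and control at right. Symbols give the replicate and the bars the mean and SD (n = 3 each). Angptl4 is at 15.8 to 58.5 CPM in the knockout and 3.58 to 5.71 CPM in the control, and the knockout libraries of Ppargc1a lie within 23.3 to 25.7 CPM.

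**Figure D2:**
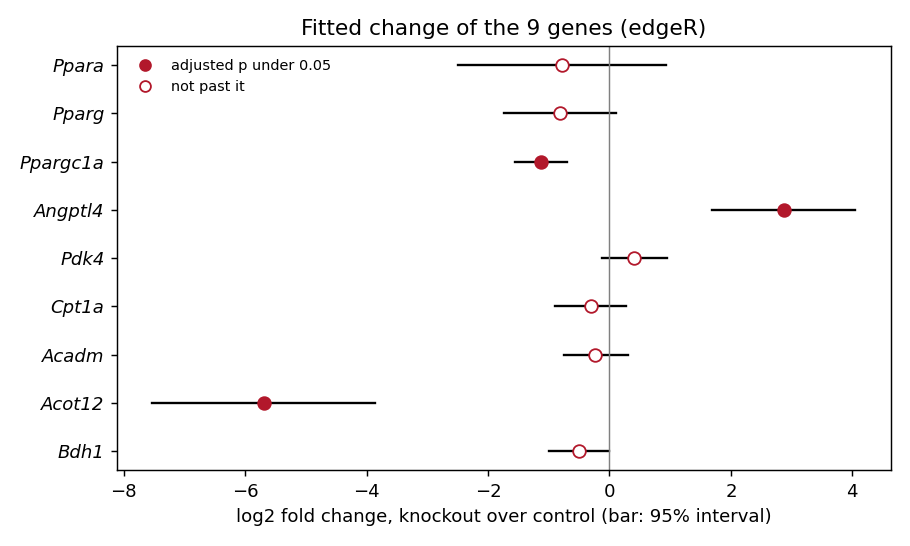
Fitted log2 fold change of each gene, knockout over control, with its 95% interval from edgeR's quasi-likelihood fit. Filled points are past an adjusted p of 0.05: Ppargc1a at -1.13, Angptl4 at 2.87 and Acot12 at -5.69.

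The levels of the genes spanned a wide range. In FPKM, Cpt1a stood highest in both groups, at 69 ± 13.4 in the knockout and 82.1 ± 13.9 in the control (SD, n = 3 each). In the knockout it was followed by Acadm (19.1 ± 3.75), Bdh1 (16 ± 2.98), Pparg (15.7 ± 7.22), Pdk4 (8.02 ± 1.94), Angptl4 (7.41 ± 4.77), Ppargc1a (3.05 ± 0.391), Ppara (1.54 ± 1.22) and Acot12 (0.0296 ± 0.0376). The ranges of neighbours over the 3 knockout libraries overlapped, except that Cpt1a lay above and Acot12 below all others. In the control the order was Cpt1a, Pparg (26.9 ± 4.06), Bdh1 (21.8 ± 0.618), Acadm (21.5 ± 1.99), Ppargc1a (6.3 ± 1.19), Pdk4 (5.7 ± 1.28), Ppara (2.61 ± 1.36), Acot12 (1.58 ± 0.483) and Angptl4 (0.933 ± 0.235). Neighbouring ranges overlapped there between Bdh1 and Acadm, between Ppargc1a and Pdk4, and between Ppara and Acot12. Angptl4 was therefore the lowest of the 9 genes in the control by its mean and the sixth in the knockout.

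The receptors come first. Ppara (GRCm38 chromosome 15, 85734983 to 85802819) had 2.16, 18.1 and 8.17 CPM in knockout replicates 1, 2 and 3, against 12.1, 10.7 and 26.0 CPM in the control replicates. The knockout libraries were 8.36-fold apart and overlapped the control libraries, which were 2.43-fold apart. Its log2 fold change was -0.78 ± 0.72 (SE; 95% interval -2.49 to 0.93; adjusted p = 0.665), and the interval holds both lower and higher levels. It was -1.65 without knockout replicate 2, -0.32 without knockout replicate 1 and -0.27 without control replicate 3. Pparg (chromosome 6, 115360951 to 115490399) had 32.6, 101.5 and 61.0 CPM in the knockout, against 105.8, 103.4 and 134.2 CPM in the control. Knockout replicate 2 lay just below the lowest control library and replicate 1 far below it. The log2 fold change of -0.82 ± 0.39 was not past the threshold (interval -1.74 to 0.11, adjusted p = 0.37). Without knockout replicate 2 it was -1.29, with an adjusted p of 0.0373.

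Ppargc1a (chromosome 5, 51454250 to 51567726) encodes PGC-1alpha, a coactivator of PPARs and of other nuclear receptors. It had 25.6, 23.3 and 25.7 CPM in the knockout, against 58.2, 42.6 and 62.7 CPM in the control. Its knockout libraries were only 1.11-fold apart, the least of the 9 genes, and all lay below every control library. The log2 fold change was -1.13 ± 0.18 (interval -1.56 to -0.70, adjusted p = 0.0386). The call was lost without knockout replicate 1 or 3 or any 1 control library, at adjusted p = 0.0506 to 0.199, while the log2 fold change stayed within -1.29 to -1.02. Of 18 PPAR receptors and coregulators tested, 1 fell, Ppargc1a itself, and 0 rose. The list had a median log2 fold change of -0.23, against 0.01 over all genes tested. Its most abundant other genes were Ppard, the third PPAR, with 99.3, 151.2 and 121.9 CPM in the knockout and 193.4, 200.5 and 161.3 CPM in the control, and Rxra, the partner receptor. Their log2 fold changes were -0.58 (adjusted p = 0.208) and -0.37 (adjusted p = 0.467). In FPKM, Ppard stood at 19.5 ± 2.56 in the knockout and 27.9 ± 3.18 in the control, close to Pparg.

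Among the PPAR targets, Angptl4 (chromosome 17, 33773750 to 33781575) had 58.5, 15.8 and 35.2 CPM in the knockout, against 3.58, 5.67 and 5.71 CPM in the control. Every knockout library lay above every control library, with replicate 1 highest. The log2 fold change was 2.87 ± 0.49 (interval 1.69 to 4.05, adjusted p = 0.0473). The call was kept without knockout replicate 1 (adjusted p = 0.0417) or 2 (0.00369). It was lost without knockout replicate 3 (0.188) or control replicate 1 (0.206), 2 (0.206) or 3 (0.163), with log2 fold changes of 2.67 to 2.97. Pdk4 (chromosome 6, 5483351 to 5496309) encodes the kinase that turns off pyruvate dehydrogenase and so spares glucose. It had 36.6, 26.7 and 29.2 CPM in the knockout and 28.7, 17.8 and 23.6 CPM in the control. The groups overlapped, and the log2 fold change of 0.40 ± 0.22 was not past the threshold (interval -0.13 to 0.94, adjusted p = 0.449). Angptl4 and Pdk4 thus both had positive fold changes, and only Angptl4 was past the threshold. Cpt1a and Acadm, described below, are also in the list of PPAR target genes. Their log2 fold changes were -0.31 and -0.23.

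Of 31 PPAR target genes tested, Angptl4 rose and 0 fell, with a median log2 fold change of -0.14. Groups that did not overlap were found for 5 higher and 2 lower genes of this list, against 11.2% and 10.4% of all genes tested. Negative fold changes were found for 21 of the 31 and for 48.4% of all genes tested. Of 10 angiopoietin-like and lipoprotein lipase genes tested, Angptl4 rose and 0 fell, with a median of 0.11. Lpl, the lipase that Angptl4 inhibits, had 57.7, 81.6 and 64.5 CPM in the knockout and 93.7, 68.9 and 44.9 CPM in the control (log2 fold change -0.03, interval -0.70 to 0.65). Angptl2 had a log2 fold change of -0.85 (adjusted p = 0.469).

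Angptl4 and Pdk4 are also known to respond to hypoxia and to glucocorticoids, and lists of such genes were therefore counted. Of 11 hypoxia response genes, 0 rose and 0 fell, with a median log2 fold change of -0.02. In that list 5 genes were higher and 2 lower without overlap of the groups, against 11.2% and 10.4% of all genes tested. The log2 fold changes of the list ran from -0.77 to 1.7. Its most abundant genes, Ndrg1 and the glucose transporter Slc2a1, had log2 fold changes of -0.11 and -0.19. Of 7 glucocorticoid response genes, 0 rose and 0 fell, with a median of -0.32. Their log2 fold changes ran from -0.85 to 1.51. Of these, 5 were negative and 2 positive, where 48.4% of all genes tested were negative. Fkbp5, a chaperone of the glucocorticoid receptor, and Sgk1, a kinase that regulates sodium uptake, had log2 fold changes of -0.53 (adjusted p = 0.276) and -0.51 (adjusted p = 0.342).

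The oxidation enzymes came out close to each other. Cpt1a (chromosome 19, 3323301 to 3385732) loads long-chain fatty acids onto carnitine, the step that controls their entry into mitochondria. It had 215.5, 373.9 and 289.4 CPM in the knockout, against 366.7, 298.1 and 423.1 CPM in the control. Acadm (chromosome 3, 153922357 to 153944632), the medium-chain acyl-CoA dehydrogenase, had 89.8, 156.9 and 123.6 CPM in the knockout, against 147.4, 129.2 and 156.8 CPM in the control. For both genes knockout replicate 1 was the lowest of the 6 libraries and replicate 2 lay within or at the edge of the control range. The log2 fold changes were -0.31 ± 0.24 for Cpt1a (interval -0.89 to 0.27, adjusted p = 0.605) and -0.23 ± 0.22 for Acadm (interval -0.75 to 0.30, adjusted p = 0.683). Both intervals hold no change.

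Of 33 genes of mitochondrial beta oxidation and the carnitine shuttle, 0 rose and 0 fell, with a median log2 fold change of -0.14. Without overlap, 3 were higher and 3 lower, against 11.2% and 10.4% of all genes tested. Hadha, a subunit of the trifunctional protein, and Slc25a20, the carnitine carrier, were the most abundant others, at log2 fold changes of -0.14 and -0.31. Of 21 genes of peroxisomal oxidation, Slc27a2 fell and 0 rose, with a median of -0.12. Slc27a2, which activates very long-chain fatty acids, had 1.18, 2.55 and 2.37 CPM in the knockout, against 7.97, 8.62 and 9.85 CPM in the control. Its log2 fold change was -2.11 ± 0.34 (adjusted p = 0.0394), and the call was lost without knockout replicate 3 (0.188) or any 1 control library (0.148 to 0.176). Of 15 respiratory chain and citrate cycle genes, 0 were past the threshold, while 14 had negative fold changes with a median of -0.25. Cs, citrate synthase, stood at a log2 fold change of -0.50 (adjusted p = 0.265). Of 13 genes of pyruvate dehydrogenase and its regulators, 0 were past it, with a median of -0.17. The complex's subunit genes Pdha1 and Dld had log2 fold changes of -0.27 and -0.24.

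Acot12 (chromosome 13, 91741512 to 91786148) had 0, 4 and 1 reads in knockout replicates 1, 2 and 3, against 100, 140 and 72 reads in the control. In CPM that was 0, 0.292 and 0.0623 in the knockout, against 6.18, 8.10 and 4.38 in the control. The 0 reads of knockout replicate 1 allow up to 0.197 CPM (3 reads, counting error only). Per read rate, the control was 56.2-fold higher, with an exact 95% counting interval of 23.8 to 174. The fitted log2 fold change was -5.69 ± 0.77 (interval -7.53 to -3.86, adjusted p = 0.0252). It was lost as a call without knockout replicate 3 (adjusted p = 0.172) or control replicate 1 (0.135), 2 (0.129) or 3 (0.104), at log2 fold changes of -5.89 to -5.39. It was -7.30 without knockout replicate 2 and -5.13 without knockout replicate 1, with the call kept. On log2(FPKM + 1), a scale that understates changes of low genes, limma gave -1.31 (adjusted p = 0.0159). Of its exon bases, 4.52% also lie in exons of 4833422C13Rik on the other strand, and the sources used here do not state whether counting used strand.

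Of 12 acyl-CoA thioesterases tested, Acot12 fell and 0 rose, with a median log2 fold change of 0.14. The 11 others had a median log2 fold change of 0.17. The most abundant were Acot11, with 105.9, 174.3 and 144.4 CPM in the knockout and 100.6, 128.6 and 83.3 CPM in the control, and Acot7, which acts on long-chain acyl-CoA in brain. Acot11 is a thioesterase known from brown fat. Their log2 fold changes were 0.44 (adjusted p = 0.437) and -0.25 (adjusted p = 0.494). Over the 6 libraries the genes whose log2 CPM ran closest to that of Acot12 were Serhl and Mpzl3 (Pearson r = 0.9966 each) and Azi2 (0.9953). Their own log2 fold changes were -0.63, -1.27 and -0.56. For Cpt1a, the most abundant gene of the 9, they were Cdkn2b (0.9938), Ptdss2 (0.9916) and 0610009O20Rik (0.991). With 6 libraries that share their depth and composition, such values describe these samples and no more.

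Bdh1 (chromosome 16, 31422280 to 31458901), the mitochondrial enzyme that interconverts the main ketone bodies, had 74.4, 127.0 and 99.2 CPM in the knockout. It had 139.4, 144.4 and 142.0 CPM in the control, whose libraries were 1.04-fold apart. Every knockout library lay below every control library, but by little in replicate 2. The log2 fold change was -0.50 ± 0.20 (interval -0.99 to -0.01), with an unadjusted p of 0.0455 and an adjusted p of 0.297. Without knockout replicate 2 it was -0.71, with an adjusted p of 0.0441. Of its exon bases, 13.7% are shared with Gm15743 on the other strand.

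Of 12 genes of ketone synthesis, use and transport tested, 0 rose and 0 fell, with a median log2 fold change of -0.32. Slc16a1, a carrier of ketones, lactate and butyrate, had 198.7, 200.2 and 195.4 CPM in the knockout, against 316.3, 277.7 and 250.3 CPM in the control. The groups did not overlap, and the log2 fold change of -0.51 was not past the threshold (adjusted p = 0.147). Of 12 genes of short-chain fatty acid uptake, activation and reception, 0 were past it, with a median of -0.26. Slc26a3, the chloride-bicarbonate exchanger of the colonic surface, had 495.2, 390.9 and 452.2 CPM in the knockout, against 1495, 1104 and 524.2 CPM in the control (log2 fold change -1.22, adjusted p = 0.175). Over the 12 pathway lists, 160 genes other than the 9 were tested. Of those, 1 fell and 0 rose, and the median log2 fold change was -0.15. Without overlap, 11.9% were lower and 11.9% higher, against 10.4% and 11.2% of all genes tested.

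**Figure D3:**
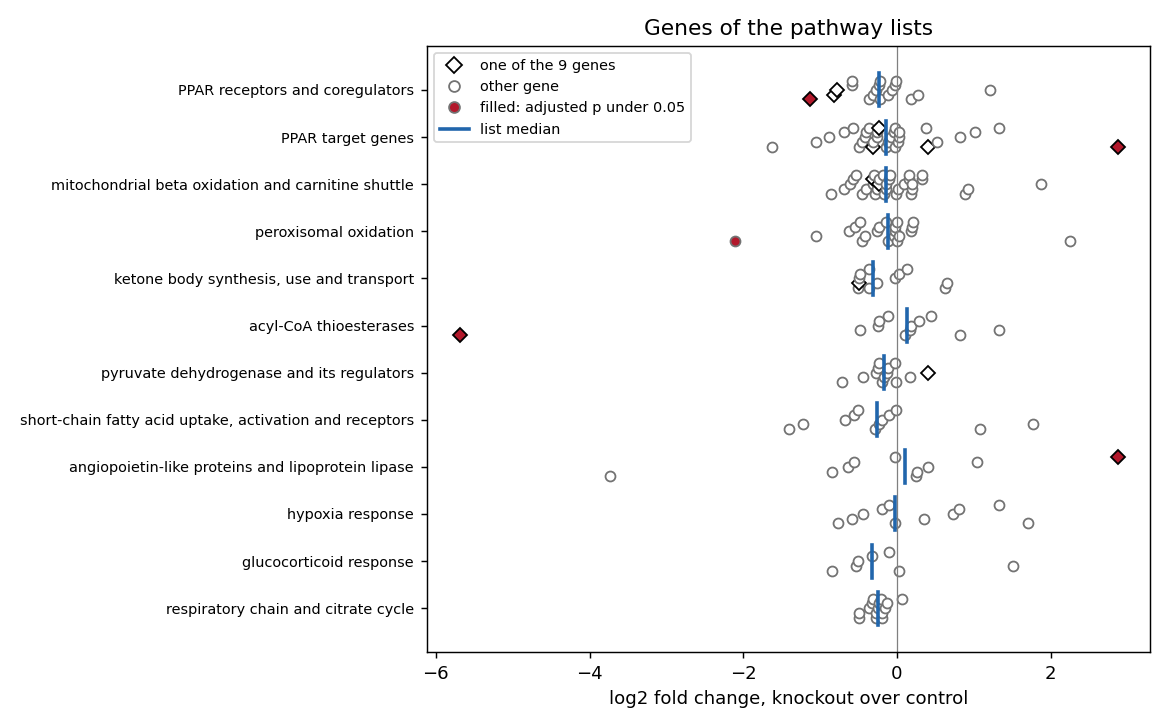
Log2 fold change, knockout over control, of every tested gene of the 12 pathway lists. Diamonds are the 9 genes, filled symbols are past an adjusted p of 0.05 and blue bars mark list medians. Acot12 at -5.69 is the lowest value drawn and Angptl4 at 2.87 the highest, and the medians lie between -0.32 and 0.14.

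The makeup of the tissue differed between libraries, and these genes are expressed in several cell types. In whole tissue, fewer cells of a type and less RNA per cell cannot be told apart. The 13 pan-epithelial markers summed to 8292, 18130 and 13060 CPM in knockout replicates 1, 2 and 3, against 14930 to 16850 CPM in the control. Of these, 0 rose and 0 fell, with a median log2 fold change of -0.35, and the most abundant, Krt8 and Lgals4, had log2 fold changes of -0.40 and 0.06. The 11 surface colonocyte markers, led by Car1 and Krt20, summed to 3625, 10050 and 7081 CPM in the knockout and 12940 to 13980 CPM in the control, with 0 past the threshold and a median of -0.95. Car1 and Krt20 had log2 fold changes of -0.59 and -0.45. Knockout replicate 1 was lowest and replicate 2 highest of the knockout libraries in both sums. The same order held for Ppara, Pparg, Cpt1a, Acadm and Bdh1. Relative to the control mean, these genes lay at -2.91, -1.81, -0.75, -0.69 and -0.93 log2 units in replicate 1. In replicate 2 they lay at 0.15, -0.17, 0.04, 0.12 and -0.16. Acot12 also had this order, but on 0, 4 and 1 reads in knockout replicates 1, 2 and 3. Of 4673 genes at least 2-fold apart in replicates 1 and 2, 95.5% lay between them in replicate 3. A shared order therefore mostly repeats the difference between replicates 1 and 2. The share of all genes with this order was not counted. The part of epithelium in the levels of these genes was not tested.

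**Figure D4:**
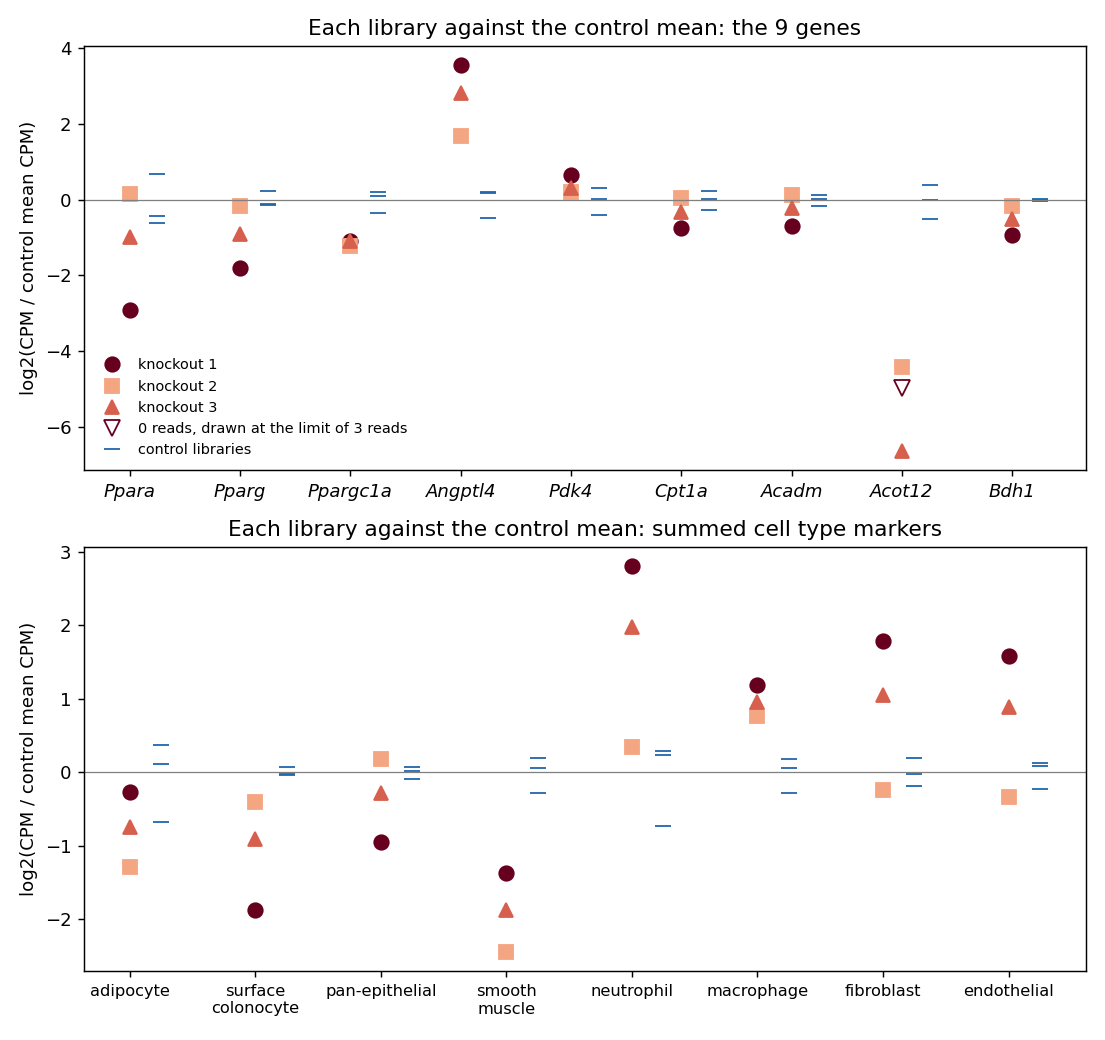
Log2 ratio of each library to the control mean, for the 9 genes (top) and for the summed markers of 8 cell types (bottom). Red symbols are the knockout replicates and blue dashes the control libraries; an open triangle marks 0 reads, drawn at the upper limit of 3 reads. For Ppara, Pparg, Cpt1a, Acadm and Bdh1, as for the epithelial sums, replicate 1 is lowest and replicate 2 nearest the control. Replicate 3 lies between replicates 1 and 2 for most genes far apart in them, so a shared order mostly repeats that difference.

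The levels were therefore also divided by the summed epithelial markers, a scaling added after the data had been seen and used without a test. Per 1000 CPM of epithelial markers, Cpt1a averaged 22.9 CPM in both groups, and Acadm 9.65 CPM in the knockout and 9.09 CPM in the control. In the same unit Bdh1 had 8.97, 7.01 and 7.59 in the knockout and 8.62, 8.57 and 9.51 in the control, and the groups then overlapped. Pparg stayed lower in the knockout in every library, at 3.93, 5.6 and 4.67, against 6.54, 6.14 and 8.99 in the control. Ppargc1a had 3.09, 1.28 and 1.97 in the knockout and 3.6, 2.53 and 4.2 in the control, with overlap. Angptl4 (0.873 to 7.05 in the knockout, 0.222 to 0.383 in the control) and Acot12 (0 to 0.0161 against 0.293 to 0.481) kept their direction without overlap. The epithelial sums ran from 8292 to 18130 CPM, a smaller fold range than the gap between the groups for either gene. This scaling therefore could not have made them overlap, and the part of tissue makeup in their levels was not tested.

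**Figure D5:**
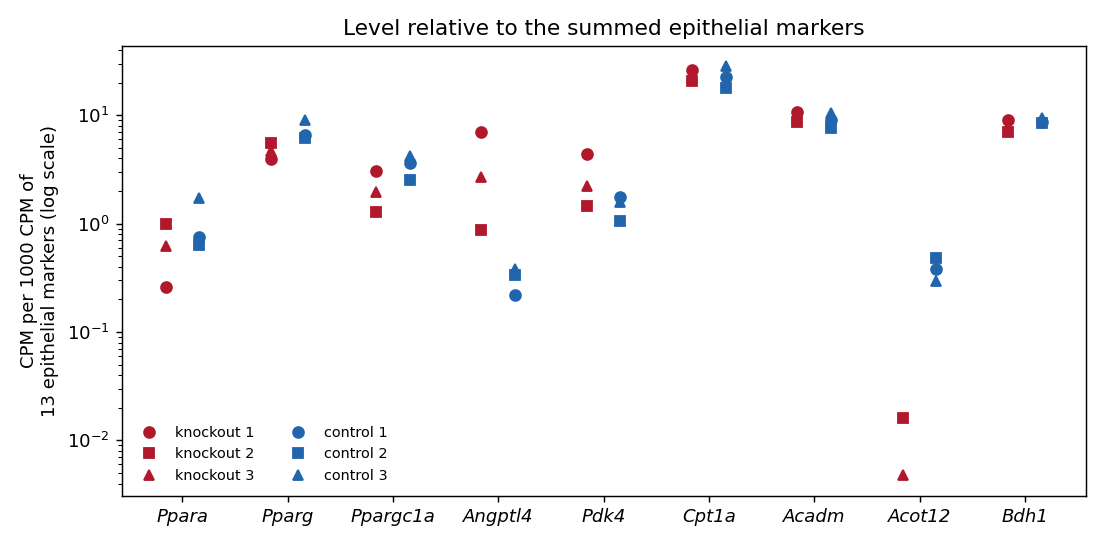
CPM of each gene per 1000 CPM of 13 summed epithelial markers, on a log scale, with knockout at left and control at right of each pair. Knockout replicate 1 of Acot12 is at 0 and not drawn. Cpt1a and Acadm overlap between the groups, while Angptl4 and Acot12 stay apart.

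Other cell types moved as well. The 10 smooth muscle markers summed to 4495, 2114 and 3174 CPM in the knockout, against 9509 to 13210 CPM in the control, and 4 of the 10 fell, with a median log2 fold change of -1.67. Without knockout replicate 3, or control replicate 1 or 2, 0 of the 10 smooth muscle markers were past the threshold, and 2 were without control replicate 3. Without knockout replicate 1 or 2, all 10 were. Of all genes tested, 0.67% fell with every library kept, 0.0558% without knockout replicate 3 and 3.14% without knockout replicate 2. Myh11, smooth muscle myosin, fell (-2.12, adjusted p = 0.0497, against 0.0127 to 0.253 with 1 library left out), and Acta2, smooth muscle actin, had -1.47 (adjusted p = 0.0979). The muscle sum was lower in every knockout library, as Ppargc1a and Acot12 were. So were the surface colonocyte sum, Pparg and Bdh1. The part of muscle or surface cells in the levels of these genes was not tested. The fibroblast list (7 genes) summed to 3379, 825.1 and 2011 CPM in the knockout and 851.1 to 1111 CPM in the control. The endothelial list (7 genes) summed to 224.6, 59.39 and 138.2 CPM in the knockout and 63.88 to 82.17 CPM in the control. Neither list had a gene past the threshold, with medians of 0.94 and 1.14. Without knockout replicate 2, 6 fibroblast and 4 endothelial markers were past it, where 8.07% of all genes tested rose. Dcn, Col3a1, Pecam1 and Cdh5 had log2 fold changes of 2.28, 0.85, 1.41 and 1.14. Angptl4 had the same order over the knockout replicates as both lists. That order was also found for the smooth muscle, neutrophil, macrophage and adipocyte sums and for Pdk4, so it is not particular to a cell type. The part of fibroblasts and endothelium in the level of Angptl4 was not tested.

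Leukocyte markers were higher. The 9 neutrophil markers summed to 735.1, 133.5 and 414.3 CPM in the knockout and 63.76 to 128.2 CPM in the control, and 5 rose. Ly6g made up most of each control sum, at 121.5, 124.8 and 58 CPM, and had 446, 88.9 and 253.8 CPM in the knockout. S100a9 had 118.2, 14.4 and 57.6 CPM in the knockout and 0, 0.347 and 0.182 CPM in the control. Of the 9, 8 were higher without overlap, where 11.2% of all genes tested were. Without knockout replicate 3 or any 1 control library, 0 of the 9 neutrophil markers and 0 of the macrophage markers were past the threshold. Without knockout replicate 2 there were 9 and 6. Of all genes tested, 1.09% rose with every library kept, 0.0372% without knockout replicate 3 and 8.07% without knockout replicate 2. S100a9 had a log2 fold change of 8.40 (adjusted p = 0.0252, against 0.00212 to 0.135 with 1 library left out), while Ly6g, the most abundant, had 1.37 and was not past the threshold. The 10 macrophage markers summed to 286.2 to 383.3 CPM in the knockout and 139.5 to 191.7 CPM in the control. The list had a median log2 fold change of 0.96. Lyz2 rose (0.84, adjusted p = 0.0352, against 0.0201 to 0.188 with 1 library left out), and C1qa had 0.90 and was not past the threshold. These cells' part in the level of Angptl4 was not tested.

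Pparg, Angptl4 and Pdk4 are also genes of fat cells, which can be attached to colon samples. The 15 adipocyte markers summed to 297.5, 147.2 and 215.7 CPM in the knockout and 225.2 to 465.4 CPM in the control. Of 11 tested, 0 rose and 0 fell, with a median log2 fold change of -0.49, and none of the 15 was at 0 in all libraries. Fabp4 and Plin4, the most abundant, are not limited to fat cells and had log2 fold changes of -0.12 and -0.28. Adipoq, the defining hormone of fat cells, had 2.95, 0 and 1.12 CPM in the knockout, against 21.9, 18.7 and 4.44 CPM in the control. Adipoq was chosen after its values were seen. The part of fat cells in the levels of Pparg, Angptl4 and Pdk4 was not tested.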

How the data were processed

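RNA was extracted from frozen colon tissue with a column kit and made into Illumina libraries, per the labels' protocols. The single table deposited by the authors gives, per the file headers, read counts and FPKM for each of 34745 genes in each of 6 libraries (3 knockout, 3 control). The deposited counts are whole numbers and not normalized. Over 11507 genes with at least 50 reads in every library, count over FPKM followed the column total within 0.01 log2 units for 100% of them. Tools listed in the submitters' processing notes are edgeR, HISAT2 2.0.4 and StringTie 1.3.0, without roles. The builds listed there are mm8 and GRCh38. The loci of 7 of the 9 genes equal those of GENCODE M21 on GRCm38 and those of Angptl4 and Cpt1a overlap theirs, so coordinates are given on GRCm38. The sources used here do not state how reads that fit several genes were counted.

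Counts were tested with edgeR 4.0.16 in R 4.3.3: TMM factors, edgeR's own low-count filter, and the two-sided quasi-likelihood test with no block, with Benjamini-Hochberg adjustment over 15819 genes. Standard errors were derived from the test statistic, and intervals are 95%. With 3 against 3 libraries an exact permutation test of a single value cannot go below p = 0.1 and was not used. Alternatives were DESeq2 1.42.0, limma 3.58.1 on log2 FPKM with pseudocounts of 1 and 0.1, voom with quality weights, other scalings and filters, each library left out in turn, and a block by replicate number. The fit was tested on simulated data.

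The 9 genes, the 12 pathway and 8 cell type lists and the tests were chosen with earlier results of these data known. Of 261 list symbols, 257 were found directly and 2 through RefSeq synonyms. Named from each pathway list were up to 4 other genes past the threshold, smallest p first, or else the 2 most abundant, and from each cell type list the 2 most abundant. The genes closest in pattern were the 3 with the highest Pearson r of log2 CPM, for the gene of smallest p and the most abundant one. A few genes chosen in this way are not reported here. List medians stand beside those of all genes, with no set test.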

Additional observations from a re-analysis of the deposited data

How the results depend on the processing

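Of the 9 genes, 3 were past the threshold with RLE or upper-quartile factors, without a low-count filter and by DESeq2, as in the report. There was 1 (Ppargc1a) with only genes of a mean FPKM of at least 1, where Acot12 is not tested and Angptl4 had an adjusted p of 0.0606. There was 1 (Acot12) with limma on log2(FPKM + 1) and 1 on log2(FPKM + 0.1), and 5 with voom and quality weights. Leaving out each library gave 0 to 5 of the 9 and 15 to 1825 of all genes, against 278; the causes were not tested. The count of all genes past the threshold was 266 with RLE or upper-quartile factors and 307 without a filter. It was 204 of 12472 with the FPKM minimum, 271 and 301 with limma, 1453 with DESeq2 and 3588 with voom. All 9 genes kept their sign under the alternatives that tested them. Pairing of same-numbered libraries was looked for: deviations from the group means correlated at 0.04, -0.17 and -0.02. With so few libraries this cannot exclude pairing, and the labels state none. With a replicate block, 0 of the 9 and 9 of all genes passed, at adjusted p = 0.123 for Ppargc1a, 0.165 for Angptl4 and 0.1 for Acot12. Per epithelial marker sum, the log2 ratio of means was -0.7 for Ppargc1a, 3.5 for Angptl4, 0.88 for Pdk4, 0.09 for Acadm and -0.18 for Bdh1.

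Some other named genes changed sign, none of them past the threshold. Lpl had log2 fold changes of 0.08 and 0.10 with limma on log2(FPKM + 1) and log2(FPKM + 0.1), and 0.02 with the replicate block. Leaving out each library gave -0.26 to 0.25 for Lpl, -0.52 to 0.14 for Hadha, -0.26 to 0.10 for Ndrg1, -0.76 to 0.31 for Fabp4, -0.99 to 0.18 for Plin4 and -0.21 to 0.27 for Lgals4. Depth limits Acot12 most, with 5 reads over the knockout libraries.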
